A study of Mus musculus with 24 samples.

Results

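Chemokines are small secreted proteins that guide the movement of leukocytes, and they were followed here together with their receptors in cells sorted from the epididymal fat of obese mice. The members are all genes in the deposited count tables whose symbol is a numbered Ccl, Cxcl, Ccr or Cxcr name, plus Cx3cl1 and Cx3cr1, which gave 54 of 21063 genes, 37 ligands and 17 receptors. The study measured gene expression by RNA sequencing in 24 libraries, 3 for each of 8 groups, all from male C57BL/6J mice on a high-fat diet that weighed 38 to 42 g at an age of 18 to 20 weeks. Sorted populations carried the labels AP (adipose progenitor), M1 macrophage and M2 macrophage.

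Cold mice spent 7 days at 18 °C and a further 7 days at 4 °C, with harvest on day 14, and gave AP, M1 and M2 libraries. bFKB1 mice stayed at thermoneutrality, received the bispecific antibody bFKB1 intraperitoneally at 10 mg/kg and were harvested after 8 days, and they gave M1 and M2 libraries. Warm mice stayed at 29 to 30 °C without treatment and gave AP, M1 and M2 libraries. Diet started at 6 weeks of age in Warm and Cold mice, and each of their libraries pooled sorted cells of 5 mice, while pooling is not stated for bFKB1. No vehicle group was analysed, and the bFKB1 libraries stand in a table of their own, so the treatment and the table cannot be told apart. bFKB1 activates the receptor complex of Fgfr1 and its co-receptor Klb. Fgfr1 averaged 556 ± 39.7 CPM in Warm AP, 483 ± 45.5 CPM in Warm M1 and 735 ± 109 CPM in Warm M2 (SD, n = 3 each), whereas Klb stayed under 1 CPM in all 8 groups.

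Ligands of the CC class mostly attract monocytes, dendritic cells, eosinophils and T cells, and CXC ligands attract neutrophils or lymphocytes. Receptors of both classes are G protein-coupled, and many of them bind several ligands. In obese adipose tissue the Ccl2 and Ccr2 pair is known for bringing in monocytes from the blood, which become macrophages in the tissue.

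The promoters below are shown because the Cxcl1, Cxcl2 and Cxcl3 genes, which encode ligands of the neutrophil receptor CXCR2 and lie close together on chromosome 5, carry one identical 11-base NF-kB match, and their levels are compared between the cell types in the text that follows. Ccl8 and Ccl12, which lie side by side on chromosome 11 and were the ligands of 5 CPM or more with the steepest difference between macrophage populations, have no NF-kB match in this window. Each line gives the 250 bases before the gene's start, 5′ to 3′, from RefSeq on GRCm38.p6, at chr5:90890995-90891244 (+) for Cxcl1, chr5:90903649-90903898 (+) for Cxcl2, chr5:90785851-90786100 (+) for Cxcl3, chr11:82114935-82115184 (+) for Ccl8 and chr11:82101595-82101844 (+) for Ccl12. Capitals mark the NF-kB match in the Cxcl genes and the TATAAA box in the Ccl genes.
Cxcl1: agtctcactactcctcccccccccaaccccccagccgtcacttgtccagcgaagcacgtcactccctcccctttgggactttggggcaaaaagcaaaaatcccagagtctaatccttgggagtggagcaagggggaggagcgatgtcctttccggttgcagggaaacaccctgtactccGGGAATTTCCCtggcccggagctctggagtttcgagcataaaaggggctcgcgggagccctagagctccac
Cxcl2: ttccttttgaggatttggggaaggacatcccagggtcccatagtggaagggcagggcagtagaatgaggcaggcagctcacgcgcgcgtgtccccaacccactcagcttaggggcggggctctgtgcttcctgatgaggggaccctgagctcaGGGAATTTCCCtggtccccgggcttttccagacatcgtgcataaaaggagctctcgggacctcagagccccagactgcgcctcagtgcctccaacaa
Cxcl3: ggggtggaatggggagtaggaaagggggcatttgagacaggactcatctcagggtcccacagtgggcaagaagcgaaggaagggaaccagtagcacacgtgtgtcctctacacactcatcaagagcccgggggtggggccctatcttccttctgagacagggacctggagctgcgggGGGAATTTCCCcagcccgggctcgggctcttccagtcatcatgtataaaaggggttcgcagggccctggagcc
Ccl8: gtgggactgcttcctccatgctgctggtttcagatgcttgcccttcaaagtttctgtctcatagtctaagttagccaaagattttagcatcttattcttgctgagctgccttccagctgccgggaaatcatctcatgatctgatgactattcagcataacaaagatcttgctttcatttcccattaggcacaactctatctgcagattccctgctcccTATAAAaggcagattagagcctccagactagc
Ccl12: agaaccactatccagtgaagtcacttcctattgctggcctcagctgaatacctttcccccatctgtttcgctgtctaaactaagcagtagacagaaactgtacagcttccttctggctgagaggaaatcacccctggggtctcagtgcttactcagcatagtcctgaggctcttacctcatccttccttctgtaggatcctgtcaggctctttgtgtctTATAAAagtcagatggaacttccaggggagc
A promoter entry was found for 39 of the 54 members. In 32851 windows of this length, searched on both strands with overlapping matches counted, the NF-kB motif occurred in 7.25%, and it occurred in 10 of the 39 members. A member counted where any of its windows held a match. Percentages of windows and counts of members are therefore different units, for this motif and for those that follow. AP-1 (TGANTCA) occurred in 6.75% of windows and 6 members, the STAT6 motif in 5.85% and 1 member, the interferon motif ISRE in 2.98% and 3 members, and TATAAA in 12.4% and 11 members. Ccl17 was the member with the STAT6 match, and Cxcl10 held NF-kB, AP-1 and ISRE matches. The stretch GGGAATTTCCC holds overlapping NF-kB matches on both strands, which begin 71 and 70 bases before the start in Cxcl1, 97 and 96 bases in Cxcl2, and 73 and 72 bases in Cxcl3. TATAAA began 30 bases before the start in Cxcl3, 32 in Ccl8 and 31 in Ccl12. A match describes letters in the sequence and is no measured binding site.

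Libraries held 14374696 to 34600782 counts. Macrophage markers summed to 11403 to 28036.5 CPM (counts scaled to a library total of 1000000) in the macrophage libraries, against 74.2 to 523 CPM in the AP libraries, with none of the 10 markers at 0 in a group. All 25 progenitor markers were higher in Warm AP than in Warm M1 and Warm M2. Itgax, which encodes CD11c and marks M1 adipose tissue macrophages, averaged 779 ± 50.04 CPM in Warm M1 and 105 ± 26.5 CPM in Warm M2, while Mrc1, which encodes CD206 and marks M2 macrophages, averaged 1703 ± 21.5 CPM in Warm M1 and 5761 ± 122 CPM in Warm M2. Progenitor markers moved with cold in M1: 21 of 24 tested markers were higher and 1 lower in Cold M1, and the 25 listed markers, none at 0, summed to 27330.1 to 67313.5 CPM in Cold M1 against 15963 to 24604 CPM in Warm M1. Set against the AP libraries, the median of 16 markers put the progenitor share of RNA at 46.9%, 23.3% and 16.3% in Cold M1 libraries 1, 2 and 3, against 2.08%, 8.66% and 2.14% in Warm M1, with single markers between 21.4% and 61.5% in Cold M1 library 1. The same share was 0.983% to 7.44% in the other macrophage libraries. Macrophage RNA in AP libraries was 0.158%, 0.906% and 0.244% in Cold AP against 2.44%, 2.06% and 0.357% in Warm AP. Values without Cold M1 library 1, or with the expected progenitor counts subtracted, stand beside the results for Cold M1.

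Of the 54 members, 30 reached a mean of 5 CPM in 1 or more groups, and 3 more (Ccl25, Ccr3 and Cxcl5) reached 1 CPM. The other 21 stayed under 1 CPM in every group. Among these, Ccl19, Ccl20, Ccl21a, Ccl27b and Cxcl15 had no count in any library, and the remaining 16, including Ccl1, Ccl21b, Ccl26, Ccl28, Ccr4, Ccr6, Ccr8, Ccr9, Cxcl11, Cxcr1, Cxcr2 and Cxcr6, had group means of at most 0.904 CPM. Ccl21a and Ccl21b, and Ccl27a and Ccl27b, are near-identical copies whose reads the counting may have split, so their low counts are uncertain. Ccr4, the receptor for Ccl17 and Ccl22, and Cxcr2, the receptor for Cxcl1 and Cxcl2, were thus near 0 in the sorted cells. Members took 0.488% ± 0.0717 of all counts in Cold M1, 0.619% ± 0.0256 in bFKB1 M1 and 0.724% ± 0.0229 in Warm M1. In M2 they took 0.861% ± 0.00907 under Cold, 0.746% ± 0.0477 under bFKB1 and 0.925% ± 0.0236 in Warm, and in AP 0.179% ± 0.0147 under Cold and 0.231% ± 0.0284 in Warm (SD, n = 3 each).

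**Figure D1:**
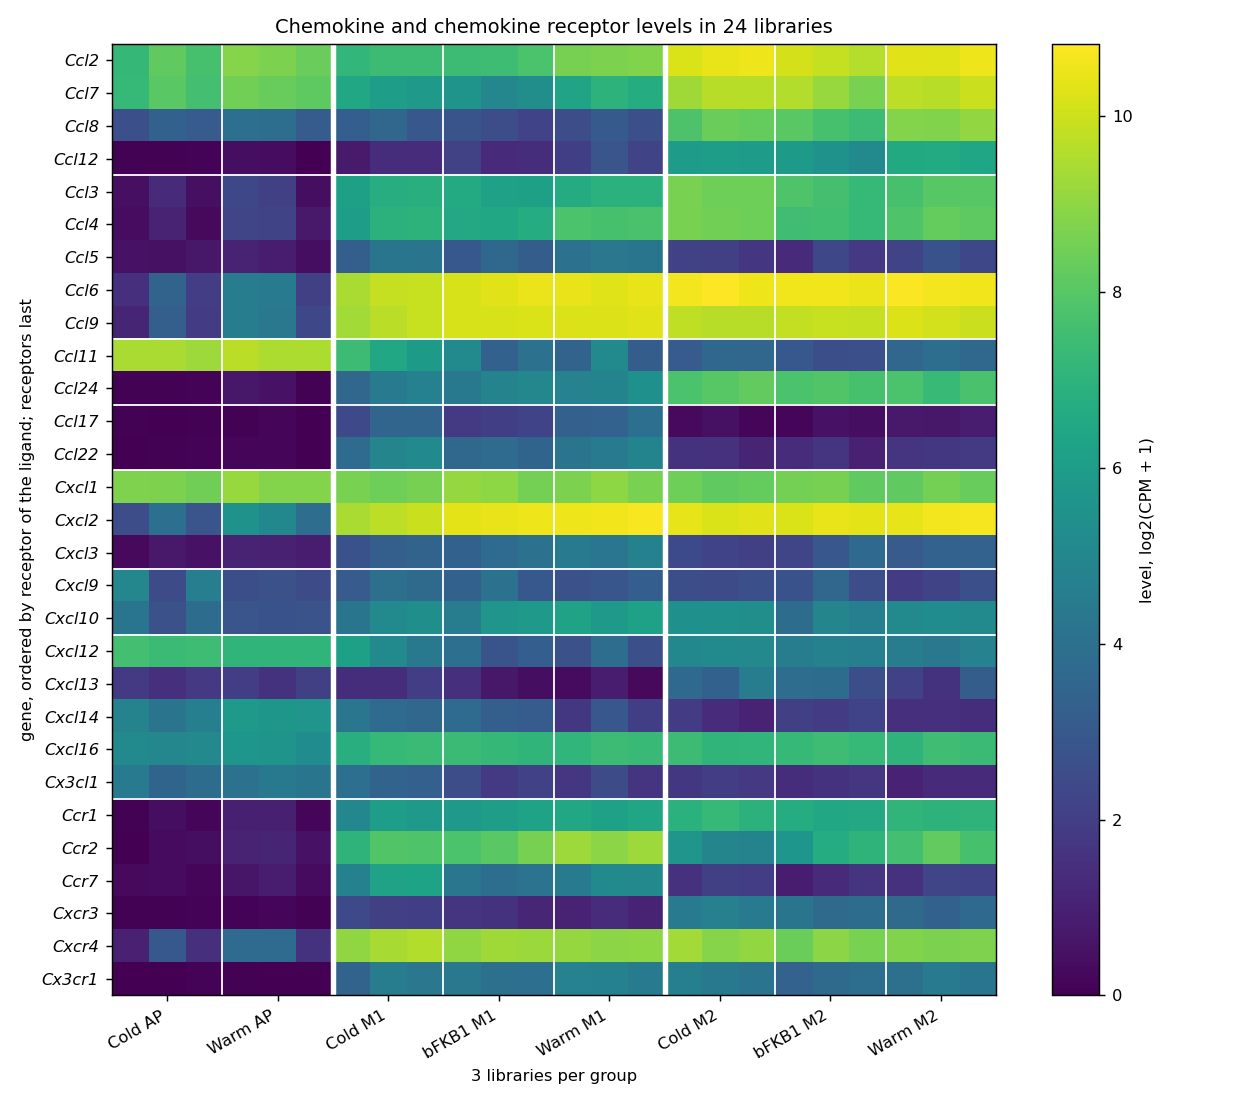
Levels of 29 members whose group mean reached 5 CPM, as log2(CPM + 1), in 24 libraries (columns, 3 per group) with ligands ordered by receptor and receptors last (rows). Ccl11, Cxcl12 and Cxcl14 are bright in AP columns, Ccl17, Ccl22 and Ccr7 in M1 columns, and Ccl8, Ccl12, Ccl24 and Cxcr3 in M2 columns.

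Members were ranked per kilobase of exon (GENCODE M21), which allows different genes to be set side by side. The leading chemokines differed in part between populations and were in part shared, as Ccl2 was. In Warm AP the highest were Ccl11 with 696 ± 62.4, Ccl7 with 399 ± 49.2 and Ccl2 with 349 ± 60.3 CPM per kb. In Warm M1 they were Cxcl2 with 761 ± 53.04 and Ccl6 with 754 ± 50.5 CPM per kb, levels within 1 SD of each other, followed by Ccl9 with 405 ± 13.5 and Ccl2 with 363 ± 23.98. In Warm M2 the CCR2 ligands led, with Ccl2 at 1181 ± 115, Ccl7 at 1102 ± 119.5 and Ccl8 at 921 ± 102 CPM per kb, and Ccl6 at 905 ± 62.6 overlapped Ccl8 within the SD. The highest receptor in macrophages was Cxcr4, at 285 ± 16.8 CPM per kb in Warm M1 and 232 ± 5.24 in Warm M2.

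Chromosome 11 carries 11 CC ligand genes in 2 blocks, Ccl2, Ccl7, Ccl11, Ccl12, Ccl8 and Ccl1 (chr11:82035571-82305690 on GRCm38) and Ccl5, Ccl9, Ccl6, Ccl3 and Ccl4 (chr11:83525778-83664683). Neighbours in the first block differed in the cell type that held them. Warm AP had Ccl2, Ccl7 and Ccl11 but only 23.8 ± 7.39 CPM per kb of Ccl8 and 0.359 ± 0.313 of Ccl12, and Ccl1 stayed near 0 in every group. Warm M2 had Ccl2, Ccl7, Ccl8 and 169 ± 11.9 CPM per kb of Ccl12, with 11.2 ± 1.56 of Ccl11 between them. In the second block all 5 genes were macrophage genes: their Warm AP levels ran from 0.773 ± 0.427 CPM per kb for Ccl5 to 8.83 ± 6.16 for Ccl6, against 17.8 ± 1.49 for Ccl5 and 754 ± 50.5 for Ccl6 in Warm M1.

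**Figure D2:**
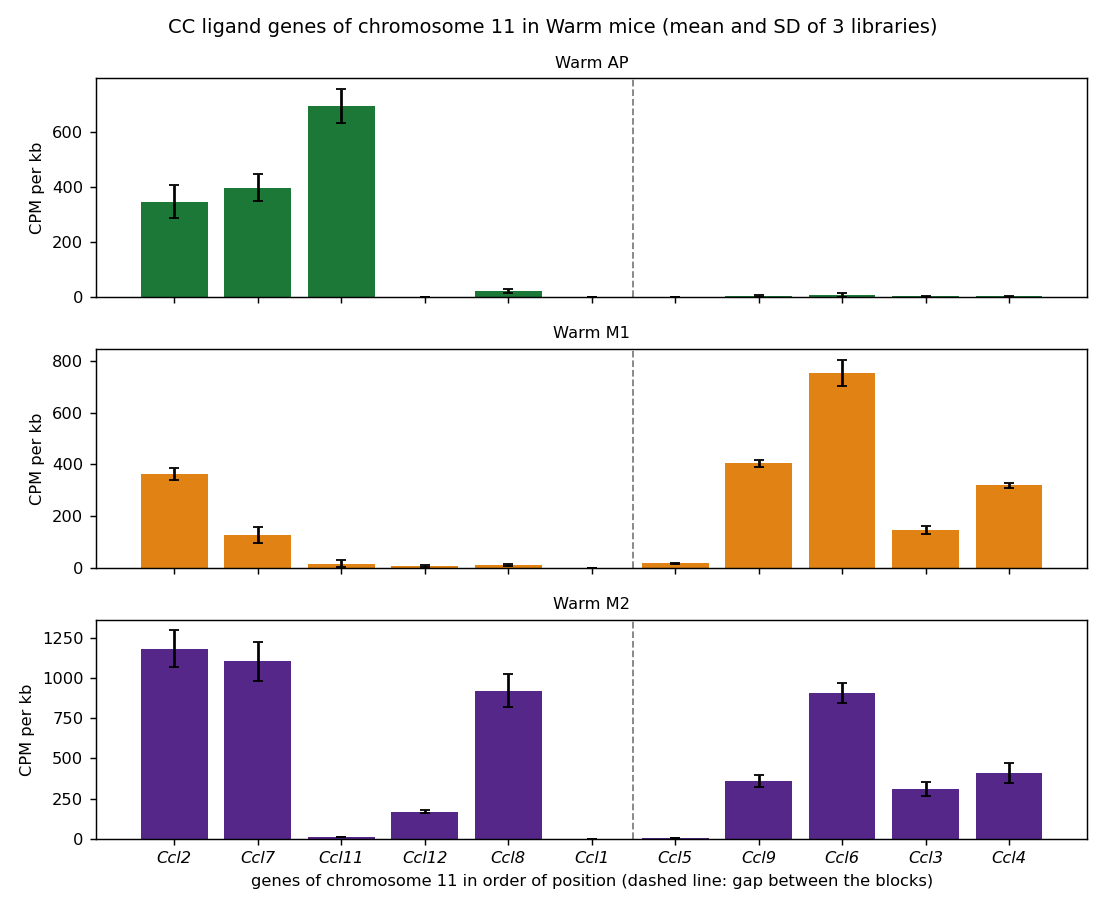
Mean CPM per kilobase of exon (bars, with the SD of 3 libraries) of the 11 CC ligand genes of chromosome 11 in gene order, in Warm AP, Warm M1 and Warm M2. Ccl11 stands highest in AP and low in both macrophage panels, and Ccl8 and Ccl12 stand out only in M2.

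M1 and M2 macrophages divided the chemokine genes between them. Changes are log2 fold changes ± SE from edgeR's quasi-likelihood test on counts, with Benjamini-Hochberg adjustment over all genes tested, and a gene is said to be higher or lower, to have risen or fallen, where its edgeR adjusted p was under 0.05. In Warm mice 23 of 35 members tested differed, 11 higher and 12 lower in M1, against 45.2% of all genes tested (22.5% higher and 22.8% lower). In Cold mice 24 of 35 differed (54.7% of all genes, 27.8% higher and 26.9% lower) and under bFKB1 24 of 34 (47.6% of all genes, 23.0% higher and 24.6% lower), in each case 11 higher and 13 lower in M1. Libraries of M1 and M2 did not overlap for 25 of 35 members under Cold (60.5% of all genes), 25 of 34 under bFKB1 (59.0%) and 27 of 35 in Warm mice (59.6%). Over the 3 conditions 18 members were called each time in one direction, 7 higher in M1 (among them Ccl5, Ccl17, Ccl22, Cxcl14, Ccr2 and Ccr7) and 11 lower (Ccl2, Ccl3, Ccl6, Ccl7, Ccl8, Ccl12, Ccl24, Ccl26, Cxcl13, Ccr1 and Cxcr3). The share called among members lay above that of all genes in each condition, and no test compared the shares. In bulk libraries of sorted cells, fewer cells of a type and less RNA per cell cannot be told apart.

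All 4 CCR2 ligands were lower in M1 in all 3 conditions. Ccl2, the main monocyte attractant, had 387, 412 and 441 CPM in the Warm M1 libraries, against 1272, 1264 and 1494 CPM in Warm M2 (-1.79 ± 0.12, edgeR adjusted p = 6.06e-07). Ccl7, which shares CCR2 with it, had 78.4, 125 and 103 CPM in Warm M1, against 867, 796 and 985 CPM in Warm M2 (-3.20 ± 0.21, edgeR adjusted p = 7e-07). Both were present in every library of both populations, and the groups lay far apart. Ccl8, in the mouse also a ligand of Ccr8, had 4.803, 7.28 and 5.18 CPM in Warm M1, against 443, 439 and 530.4 CPM in Warm M2 (-6.44 ± 0.24, edgeR adjusted p = 2.94e-08). Ccl12, a mouse CCR2 ligand, had 2.98, 6.29 and 3.63 CPM in Warm M1, against 92.8, 96.2 and 83.8 CPM in Warm M2 (-4.49 ± 0.23, edgeR adjusted p = 1.29e-07). Both had counts in every M1 library, whereas Ccl26, a low member, had 0 CPM in all 9 M1 libraries, against 0.385 to 1.19 CPM in the M2 libraries. M1 over M2 log2 fold changes under Cold and bFKB1 were -3.13 and -2.40 for Ccl2, -3.46 and -3.93 for Ccl7, -5.10 and -5.51 for Ccl8, and -5.56 and -4.49 for Ccl12.

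The inflammatory ligands Ccl3, Ccl4, Ccl5, Ccl6 and Ccl9 were split. Ccl3 had 99.1, 118 and 118 CPM in Warm M1, against 199.8, 255 and 259.8 CPM in Warm M2 (-1.18 ± 0.15, edgeR adjusted p = 8.72e-05). Ccl4 had 216, 204 and 212 CPM in Warm M1, against 225, 306 and 279 CPM in Warm M2. Ccl4 did not pass in Warm mice (-0.45 ± 0.19, edgeR adjusted p = 0.0764) but was lower in M1 under Cold (-1.87 ± 0.20, edgeR adjusted p = 1.57e-05) and bFKB1 (-0.93 ± 0.11, edgeR adjusted p = 5.76e-05). Ccl5, which T cells also make, ran the other way, with 15.6, 18.4 and 17.4 CPM in Warm M1, against 3.62, 5.59 and 4.08 CPM in Warm M2 (1.86 ± 0.25, edgeR adjusted p = 0.00011). The abundant mouse ligands Ccl6 and Ccl9 differed little between the populations. Ccl6 had 1405, 1249 and 1406 CPM in Warm M1, against 1752, 1577 and 1542 CPM in Warm M2 (-0.35 ± 0.12, edgeR adjusted p = 0.0337), and its call was lost with the replicate number as a block (adjusted p = 0.0573). Ccl9 had 1209, 1209.9 and 1281 CPM in Warm M1, against 1213, 1071 and 987 CPM in Warm M2 (0.09 ± 0.12, edgeR adjusted p = 0.575), with overlapping groups.

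Both CCR4 ligands, typical products of dendritic cells, were M1 genes. Ccl17 had 9.05, 9.504 and 14.3 CPM in Warm M1, against 0.684, 0.621 and 0.793 CPM in Warm M2 (3.88 ± 0.40, edgeR adjusted p = 1.63e-05). Ccl22 had 16.9, 21.4 and 28.1 CPM in Warm M1, against 2.05, 2.38 and 2.55 CPM in Warm M2 (3.17 ± 0.36, edgeR adjusted p = 3.65e-05). Ccr7, the receptor that leads dendritic cells to lymph nodes, had 21.6, 34.4 and 32.8 CPM in Warm M1, against 1.91, 3.78 and 3.51 CPM in Warm M2 (3.19 ± 0.41, edgeR adjusted p = 9.24e-05). All 3 genes were low in every M2 library of every condition, at most 3.78 CPM for Ccr7. Dendritic cell markers moved beside them, with 5 of 10 higher and 2 lower in Warm M1 and a summed level of 348 to 419 CPM in Warm M1, against 279 to 321 CPM in Warm M2, and their part in the difference was not tested.

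CCR3 ligands attract eosinophils. Ccl24 was an M2 gene, with 26.8, 28.7 and 42.4 CPM in Warm M1, against 216, 158 and 206 CPM in Warm M2 (-2.65 ± 0.29, edgeR adjusted p = 2.5e-05). Ccl11 did not pass in Warm mice (0.40 ± 0.51, edgeR adjusted p = 0.552) and is described with the progenitors. Among CXC ligands, Cxcl1 had 409, 501 and 399 CPM in Warm M1, against 292, 379 and 315 CPM in Warm M2 (0.32 ± 0.11, edgeR adjusted p = 0.0367), and lost its call with the replicate number as a block (adjusted p = 0.0619). Cxcl2 did not pass, with 1485, 1538 and 1696 CPM in Warm M1, against 1351, 1594 and 1646 CPM in Warm M2 (-0.05 ± 0.12, edgeR adjusted p = 0.774). Cxcl3 was higher in M1, with 20.8, 18.2 and 26.01 CPM in Warm M1, against 7.72, 9.68 and 9.51 CPM in Warm M2 (1.19 ± 0.21, edgeR adjusted p = 0.000691). The M1 over M2 values of the 3 genes with the identical NF-kB match ran from -0.05 to 1.19. Under bFKB1 the calls of Cxcl1 (0.39, adjusted p = 0.0178) and Cxcl3 (0.74, adjusted p = 0.0301) were gained with the replicate block, against edgeR adjusted p = 0.0548 for Cxcl1 and 0.125 for Cxcl3 without it.

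The interferon-induced CXCR3 ligand Cxcl10 had 74.1, 55.3 and 73.1 CPM in Warm M1, against 34.5, 36.8 and 35.05 CPM in Warm M2 (0.84 ± 0.23, edgeR adjusted p = 0.0108). Its relative Cxcl9 had 5.36, 6.46 and 8.48 CPM in Warm M1, against 2.74, 3.68 and 5.15 CPM in Warm M2 (0.73 ± 0.28, edgeR adjusted p = 0.0518, and 0.0208 with the replicate block). The receptor of both, Cxcr3, known from effector T cells, was an M2 gene with 1.07, 1.63 and 1.07 CPM in Warm M1, against 12.2, 9.27 and 12 CPM in Warm M2 (-3.23 ± 0.21, edgeR adjusted p = 6.05e-07). Of 6 T and NK cell markers tested, 4 were higher in Warm M1 and 1 lower, Cd4 (-3.37 ± 0.34, edgeR adjusted p = 1.47e-05), a T cell co-receptor gene that some macrophages also express. They summed to 91.3 to 105 CPM in Warm M1, against 28.5 to 30.6 CPM in Warm M2, and their part in the Cxcr3 result was not tested. Cxcl12, the ligand of Cxcr4, had 5.36, 13.6 and 5.23 CPM in Warm M1, against 22.5, 19.2 and 26.7 CPM in Warm M2 (-1.60 ± 0.46, edgeR adjusted p = 0.0148). Its call was lost without Warm M1 library 1 (-1.39, adjusted p = 0.0565), Warm M1 library 3 (-1.39, adjusted p = 0.0567) or Warm M2 library 3 (-1.43, adjusted p = 0.0591). Cxcl13, a B cell attractant, had 0.233, 0.813 and 0.194 CPM in Warm M1, against 3.32, 1.97 and 8.04 CPM in Warm M2, and was lower in M1 in all 3 conditions, as under Cold (-2.86 ± 0.55, edgeR adjusted p = 0.00116). Cxcl16, the membrane-bound ligand of Cxcr6, had 138, 168 and 154 CPM in Warm M1, against 129, 179 and 163 CPM in Warm M2 (-0.13 ± 0.14, edgeR adjusted p = 0.497), with overlapping groups.

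Ligands that are highest in progenitors added calls between the macrophage populations under Cold. Ccl11 was higher in Cold M1 than in Cold M2 (3.39 ± 0.54, edgeR adjusted p = 0.000326), as were Cxcl14 (2.87 ± 0.38, edgeR adjusted p = 9.73e-05) and Cx3cl1 (2.09 ± 0.29, edgeR adjusted p = 0.000139), and all 24 progenitor markers tested were higher there too. Their part in these calls was not tested. In Warm mice Cxcl14 had 2.38, 6.59 and 3.05 CPM in M1, against 1.81, 1.81 and 1.699 CPM in M2, and Cx3cl1 had 2.29, 4.58 and 2.13 CPM in M1, against 1.03, 1.502 and 1.53 CPM in M2, both called higher in M1. In Warm mice the call held in 2 of 6 fits without 1 library for Cxcl14 (0.53 to 1.33) and in 4 of 6 for Cx3cl1 (0.63 to 1.23). Cxcl2 was lower in Cold M1 than in Cold M2 (-0.63 ± 0.12, edgeR adjusted p = 0.00135), and Cxcl9 was higher (1.18 ± 0.27, edgeR adjusted p = 0.0036). Without Cold M1 library 1 the values were 2.83 for Ccl11, 2.61 for Cxcl14, 1.82 for Cx3cl1, -0.53 for Cxcl2 and 1.39 for Cxcl9, all again past the threshold. With the expected progenitor counts subtracted, the calls of Cxcl2 (-0.17, adjusted p = 0.143) and Cxcl9 (0.77, adjusted p = 0.424) were lost, and Ccl11 could not be fitted.

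Among the receptors, Ccr2 was higher in M1 and Ccr1 was lower. Ccr2, which marks cells recently come from blood monocytes, had 609, 494 and 595 CPM in Warm M1, against 192, 295 and 205 CPM in Warm M2 (1.21 ± 0.26, edgeR adjusted p = 0.00267). M1 cells thus held more of the receptor and M2 cells more of its 4 ligands. Monocyte markers ran with Ccr2, 7 of 8 higher in Warm M1 and none lower, and they summed to 9678 to 12949 CPM in Warm M1, against 2028 to 2942 CPM in Warm M2. Their sum includes Fn1, which progenitors also express, and their part was not tested. Ccr1 had 87.3, 72.6 and 81.5 CPM in Warm M1, against 133, 125 and 131 CPM in Warm M2 (-0.77 ± 0.20, edgeR adjusted p = 0.00881). Neither Cxcr4, with 549.5, 491 and 507 CPM in Warm M1, against 430.4, 412 and 418 CPM in Warm M2 (0.21 ± 0.13, edgeR adjusted p = 0.229), nor the fractalkine receptor Cx3cr1, with 26.6, 26.4 and 21.7 CPM in Warm M1, against 14.7, 21.3 and 17.3 CPM in Warm M2 (0.40 ± 0.24, edgeR adjusted p = 0.205), passed.

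Among members of 5 CPM or more, leaving out single libraries ended few of the M1 and M2 calls. In Warm mice Ccl6 lost its call without Warm M1 library 1 (-0.39, adjusted p = 0.0517), Warm M1 library 2 (-0.29, adjusted p = 0.0788), Warm M2 library 1 (-0.27, adjusted p = 0.106), Warm M2 library 2 (-0.38, adjusted p = 0.0546) or Warm M2 library 3 (-0.36, adjusted p = 0.0525). Cxcl1 lost it without Warm M1 library 2 (0.21, adjusted p = 0.162), Warm M2 library 1 (0.26, adjusted p = 0.131) or Warm M2 library 3 (0.32, adjusted p = 0.0995). Under bFKB1, where 22 members were called at 5 CPM or more, Ccl6 lost its call without bFKB1 M1 library 1 (-0.19, adjusted p = 0.117), bFKB1 M1 library 2 (-0.28, adjusted p = 0.0766), bFKB1 M2 library 1 (-0.28, adjusted p = 0.0706), bFKB1 M2 library 2 (-0.26, adjusted p = 0.0961) or bFKB1 M2 library 3 (-0.30, adjusted p = 0.0554). Ccl11 lost it there without bFKB1 M1 library 1 (1.07, adjusted p = 0.124), bFKB1 M2 library 2 (1.64, adjusted p = 0.0777) or bFKB1 M2 library 3 (1.67, adjusted p = 0.071). Ccl9 lost it without bFKB1 M1 library 3 (0.23, adjusted p = 0.0543) or bFKB1 M2 library 1 (0.22, adjusted p = 0.0589). Cxcl10 lost it without bFKB1 M1 library 2 (0.76, adjusted p = 0.132), bFKB1 M1 library 3 (0.64, adjusted p = 0.17), bFKB1 M2 library 1 (0.61, adjusted p = 0.153) or bFKB1 M2 library 3 (0.95, adjusted p = 0.0826), and Cxcr4 without bFKB1 M1 library 2 (0.35, adjusted p = 0.0778), bFKB1 M1 library 3 (0.41, adjusted p = 0.0531), bFKB1 M2 library 1 (0.28, adjusted p = 0.0714) or bFKB1 M2 library 3 (0.40, adjusted p = 0.0648).

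**Figure D3:**
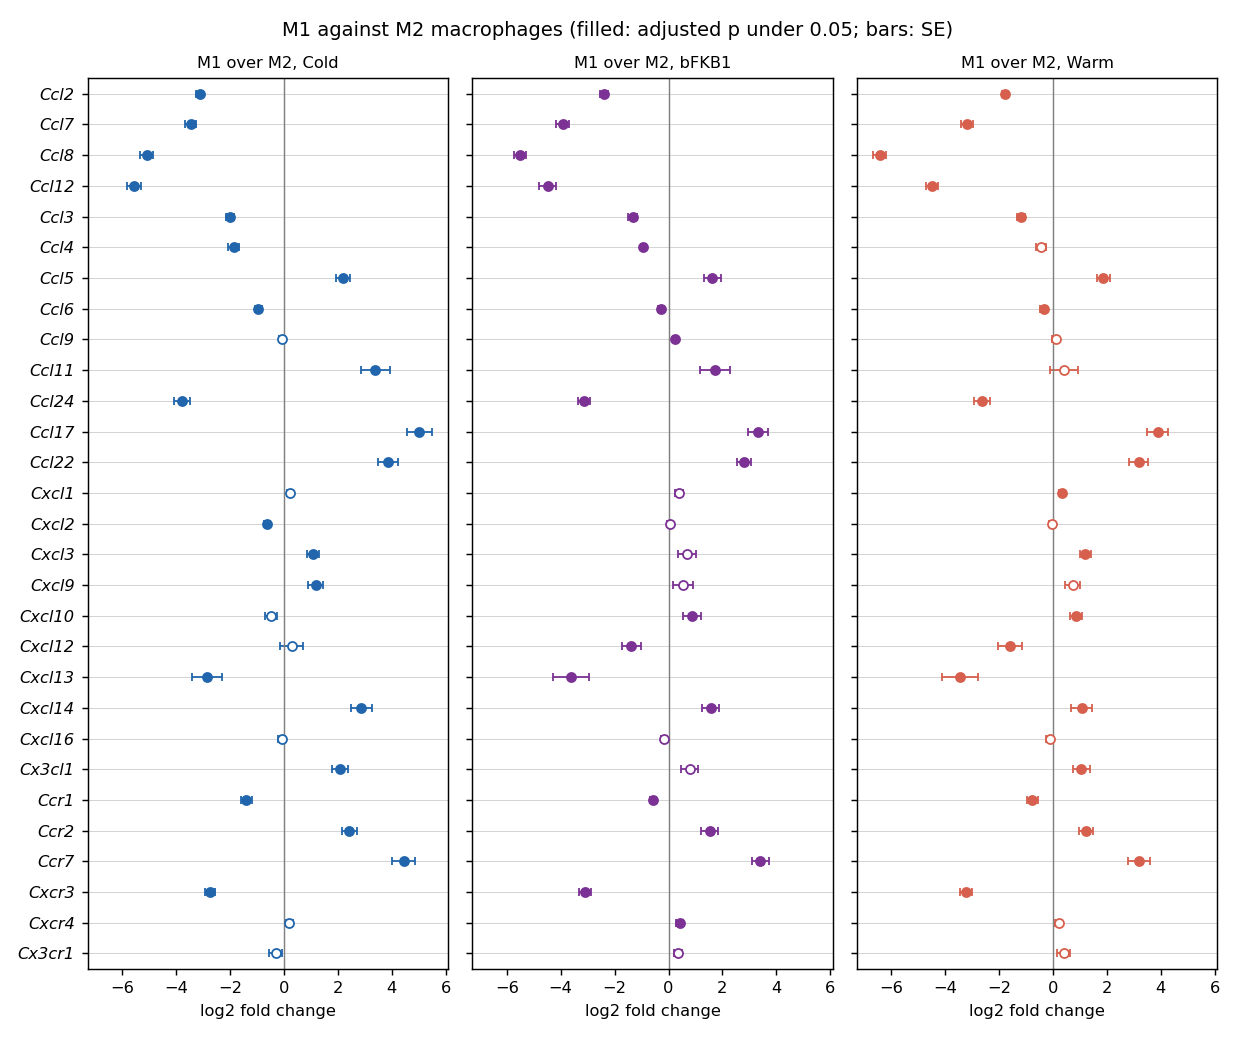
Log2 fold changes of M1 over M2 (points, with the SE as bars) for 29 members under Cold, under bFKB1 and in Warm mice, filled where the edgeR adjusted p was under 0.05. Ccl8 and Ccl12 lie farthest to the left in all 3 panels, and Ccl17, Ccl22 and Ccr7 farthest to the right.

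Adipose progenitors shared part of their chemokine set with macrophages and differed in part. In Warm mice 34 of 39 members tested differed between AP and M1, 11 higher and 23 lower in AP, against 81.9% of all genes (42.7% higher and 39.3% lower), and 35 of 39 differed between AP and M2, 8 higher and 27 lower, against 81.6% of all genes (42.1% higher and 39.5% lower). Libraries did not overlap for 32 members between AP and M1 (83.1% of all genes) and 35 between AP and M2 (82.8%). These shares lie near those of all genes. The median over members was -3.17 for AP over M1 and -2.47 for AP over M2, beside 0.05 and 0.04 over all genes. Both comparisons use the same Warm AP libraries, so they are given side by side.

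Ccl11, an eosinophil attractant, was the highest member per kilobase in progenitors, with 830.3, 707 and 721 CPM in Warm AP, against 9.89, 33.8 and 8.09 CPM in Warm M1 and 10.8, 14.03 and 11.7 CPM in Warm M2. Its log2 fold change was 5.82 ± 0.52 for AP over M1 and 6.21 ± 0.53 for AP over M2. Cxcl12 had 136, 133 and 135 CPM in Warm AP (AP over M1 4.43 ± 0.42, AP over M2 2.82 ± 0.39). Cxcl14, whose receptor is not agreed upon, had 55.2, 51.4 and 49.6 CPM in Warm AP (AP over M1 4.06 ± 0.32, AP over M2 5.13 ± 0.35). Cx3cl1, or fractalkine, had 15.4, 19.6 and 17.5 CPM in Warm AP (AP over M1 2.90 ± 0.30, AP over M2 3.96 ± 0.34). Every Warm AP library lay above every Warm macrophage library for these 4 genes, with edgeR adjusted p of at most 6.06e-06. Ccl25, Ccl27a and Cxcl5 were also called higher in AP than in both macrophage populations, at 2.20 CPM or less in every library.

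Several ligands were shared by progenitors and macrophages. Ccl2 had 455, 414 and 321 CPM in Warm AP, a level that overlapped Warm M1 (0.30 ± 0.20, edgeR adjusted p = 0.179) and lay under Warm M2 (-1.50 ± 0.20, edgeR adjusted p = 5.09e-06). Ccl7 had 361, 314 and 282 CPM in Warm AP, above Warm M1 (2.00 ± 0.23, edgeR adjusted p = 8.78e-07) and under Warm M2 (-1.21 ± 0.23, edgeR adjusted p = 0.000137). Cxcl1 had 566, 442 and 449.8 CPM in Warm AP and lay closer to its macrophage levels than Cxcl2 and Cxcl3 did (AP over M1 0.52 ± 0.13, edgeR adjusted p = 0.00136). Cxcl2 had 45.9, 32.4 and 13.7 CPM in Warm AP (AP over M1 -5.33 ± 0.44, edgeR adjusted p = 2.18e-08), and Cxcl3 had 1.101, 0.976 and 0.751 CPM (AP over M1 -4.17 ± 0.28, edgeR adjusted p = 1.78e-09). Of the 3 genes with the identical NF-kB match, 1 was higher and 2 were lower in AP than in M1. Cxcl16 had 50.8, 46.9 and 36.9 CPM in Warm AP (AP over M1 -1.41 ± 0.15, edgeR adjusted p = 2.32e-07). Cxcl9 had 5.09, 5.45 and 4.54 CPM and Cxcl10 6.12, 5.55 and 5.84 CPM in Warm AP.

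Receptors were close to absent from progenitors. Warm AP libraries had 0.929, 0.909 and 0.145 CPM of Ccr1 and 1.101, 1.14 and 0.462 CPM of Ccr2. Warm AP library 3, which had the lowest macrophage share of the 3, was lowest for both. The highest receptor per kilobase was Cxcr4, with 5.08 ± 3.43 CPM per kb and 12.6, 12.96 and 2.02 CPM in the libraries, and the macrophage share of each library, set against the macrophage libraries, would give 90.7%, 74.5% and 82.6% of these Cxcr4 levels. For Ccl3, Ccl4, Ccl6 and Ccl9 the same share would give between 102% and 197% of the level in the Warm AP libraries.

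In Cold M1 most chemokine genes typical of macrophages that changed were lower than in Warm M1. Ccl11, Cxcl12, Cxcl14 and Cx3cl1, which were higher in AP than in both macrophage populations, were higher. Other genes called higher in AP than in M1 went different ways. Ccl7 was lower in Cold M1 (-0.57 ± 0.20), and Cxcl13 was called higher at a low level. Cxcl1, Ccl8 and Ccl25 did not pass. In Cold M1 21 of 35 members tested differed from Warm M1, 8 higher and 13 lower, against 43.9% of all genes (22.4% higher and 21.5% lower). The median over members was -0.23, beside -0.03 over all genes. Libraries of the 2 groups did not overlap for 20 members, against 51.7% of all genes. Progenitor markers moved with this comparison, as given above. Without Cold M1 library 1, which had the highest progenitor share, the number of members called was again 21. In that fit 17.3% of all genes were called higher and 16.4% lower.

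Of the 4 CCR2 ligands, 3 fell in Cold M1, as did the receptor gene. Ccl2 fell to 141, 172 and 169.7 CPM in Cold M1, against 387, 412 and 441 CPM in Warm M1 (-1.38 ± 0.11, edgeR adjusted p = 9.21e-05). No Cold M1 library came near the Warm M1 range. Ccl7 had 85.9, 66.1 and 54.9 CPM in Cold M1, against 78.4, 125 and 103 CPM in Warm M1 (-0.57 ± 0.20, edgeR adjusted p = 0.0356), with overlapping groups. Ccl12 fell to 0.736, 1.68 and 1.61 CPM in Cold M1, against 2.98, 6.29 and 3.63 CPM in Warm M1. Ccl8 did not pass, with 8.36, 10.8 and 6.56 CPM in Cold M1, against 4.803, 7.28 and 5.18 CPM in Warm M1 (0.56 ± 0.22, edgeR adjusted p = 0.0617), and was called higher by DESeq2 (0.58, adjusted p = 0.02) and with the expected progenitor counts subtracted (0.71, adjusted p = 0.047). The receptor gene Ccr2 fell to 130.1, 235 and 225 CPM in Cold M1, against 609, 494 and 595 CPM in Warm M1 (-1.55 ± 0.26, edgeR adjusted p = 0.00129). Without Cold M1 library 1 the changes were -1.32 for Ccl2, -0.79 for Ccl7 and -1.34 for Ccr2, all 3 again past the threshold. The progenitor share alone would give 70.2%, 28.6% and 20.2% of the Ccl2 level in the Cold M1 libraries, and 110.4%, 71.4% and 60.01% of the Ccl7 level. Its part in these results was not tested.

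Among the inflammatory ligands Ccl3, Ccl4, Ccl5, Ccl6 and Ccl9, Ccl4 fell to 66.2, 123 and 127 CPM in Cold M1, against 216, 204 and 212 CPM in Warm M1 (-1.02 ± 0.19, edgeR adjusted p = 0.00221). Ccl6 fell to 695, 943 and 962 CPM, against 1405, 1249 and 1406 CPM in Warm M1 (-0.67 ± 0.12, edgeR adjusted p = 0.00183), and Ccl9 to 629, 841 and 957 CPM, against 1209, 1209.9 and 1281 CPM in Warm M1 (-0.63 ± 0.12, edgeR adjusted p = 0.00274). Cold M1 library 1 was the lowest for all 3 genes, and the groups did not overlap. Ccl3 had 69.4, 106 and 108 CPM in Cold M1 and did not pass (-0.27 ± 0.15, edgeR adjusted p = 0.175), nor did Ccl5 with 8.62, 17.4 and 16.97 CPM (-0.28 ± 0.23, edgeR adjusted p = 0.34). Ccl24 had 10.9, 20.5 and 26.3 CPM in Cold M1, against 26.8, 28.7 and 42.4 CPM in Warm M1 (-0.79 ± 0.28, edgeR adjusted p = 0.0416). Ccr1, a receptor for Ccl3, Ccl5, Ccl6 and Ccl9, fell to 31.6, 66.2 and 56.3 CPM in Cold M1, against 87.3, 72.6 and 81.5 CPM in Warm M1 (-0.67 ± 0.20, edgeR adjusted p = 0.02).

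Without Cold M1 library 1 the changes were -0.79 for Ccl4, -0.55 for Ccl6, -0.50 for Ccl9 and -0.44 for Ccr1, all again past the threshold. They were -0.10 for Ccl3, -0.04 for Ccl5 and -0.52 for Ccl24, which did not pass. With the expected progenitor counts subtracted, the calls of Ccl9 (-0.20, adjusted p = 0.0578), Ccr1 (-0.26, adjusted p = 0.144) and Ccl24 (-0.39, adjusted p = 0.188) were lost. That of Ccl24 was also lost with the lowest expected counts subtracted (-0.63, adjusted p = 0.0692).

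Of the neutrophil attractants Cxcl2 and Cxcl3 fell. Cxcl3 fell to 5.68, 8.58 and 9.99 CPM in Cold M1, against 20.8, 18.2 and 26.01 CPM in Warm M1 (-1.45 ± 0.21, edgeR adjusted p = 0.00064). Cxcl2 fell to 701, 842 and 999.9 CPM, against 1485, 1538 and 1696 CPM in Warm M1 (-0.91 ± 0.12, edgeR adjusted p = 0.00053). Cxcl1 did not pass, with 398, 344 and 385 CPM in Cold M1, against 409, 501 and 399 CPM in Warm M1 (-0.23 ± 0.11, edgeR adjusted p = 0.12). Progenitors also hold Cxcl1, and their share would give 46.8%, 26.9% and 16.8% of its level in the Cold M1 libraries. Cxcl10 fell to 17.3, 34.5 and 40.3 CPM in Cold M1, against 74.1, 55.3 and 73.1 CPM in Warm M1 (-1.16 ± 0.23, edgeR adjusted p = 0.00278), while Cxcl9 was higher with 7.62, 14.7 and 12.3 CPM, against 5.36, 6.46 and 8.48 CPM in Warm M1 (0.75 ± 0.26, edgeR adjusted p = 0.0395), with overlapping groups. The Cxcl9 call was lost with the expected progenitor counts subtracted (0.24, adjusted p = 0.844) and with the lowest expected counts subtracted (0.57, adjusted p = 0.236), a subtraction chosen after seeing the data that uses the marker with the smallest share. Without Cold M1 library 1 the changes were -1.27 for Cxcl3, -0.81 for Cxcl2, -0.89 for Cxcl10 and 0.96 for Cxcl9, all again past the threshold, and -0.29 for Cxcl1, which did not pass.

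Ccl11, Cxcl12, Cxcl14 and Cx3cl1, which were higher in AP than in both macrophage populations, rose in Cold M1. Ccl11 rose to 169, 86.8 and 59.3 CPM in Cold M1, against 9.89, 33.8 and 8.09 CPM in Warm M1 (2.62 ± 0.51, edgeR adjusted p = 0.00255). Cxcl12 rose to 70.5, 33.98 and 19.4 CPM, against 5.36, 13.6 and 5.23 CPM in Warm M1 (2.37 ± 0.46, edgeR adjusted p = 0.00257). Cold M1 library 1 was highest and library 3 lowest for both, the order of their progenitor shares. Cxcl14 rose to 17.7, 12.9 and 10.8 CPM in Cold M1, against 2.38, 6.59 and 3.05 CPM in Warm M1 (1.78 ± 0.35, edgeR adjusted p = 0.00283). Cx3cl1 rose to 14.6, 9.99 and 9.08 CPM, against 2.29, 4.58 and 2.13 CPM in Warm M1 (1.90 ± 0.29, edgeR adjusted p = 0.000817). The progenitor share would give 183%, 178% and 182% of the Ccl11 level in the Cold M1 libraries and 118%, 122% and 149% of the Cxcl12 level, but 60.9%, 41.7% and 34.8% of Cxcl14 and 47.7%, 34.8% and 26.7% of Cx3cl1. With the expected progenitor counts subtracted, Cxcl14 (2.45) and Cx3cl1 (2.08) were again called higher, Ccl11 could not be fitted, and Cxcl12 turned to -8.42. Without Cold M1 library 1 the changes were 2.06 for Ccl11, 1.69 for Cxcl12, 1.53 for Cxcl14 and 1.63 for Cx3cl1.

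Ccr7 was higher in Cold M1, with 26.1, 74.3 and 75.8 CPM, against 21.6, 34.4 and 32.8 CPM in Warm M1 (0.96 ± 0.34, edgeR adjusted p = 0.0411). Cold M1 library 1 lay within the Warm range and the other 2 far above it. Ccl17, with 4.25, 10.6 and 10.7 CPM in Cold M1 (-0.40 ± 0.31, edgeR adjusted p = 0.328), and Ccl22, with 12.8, 29.6 and 35.6 CPM (0.20 ± 0.30, edgeR adjusted p = 0.613), did not pass. Without Cold M1 library 1 the changes were 1.31 for Ccr7, again past the threshold, and -0.09 for Ccl17 and 0.52 for Ccl22, which did not pass. Dendritic cell markers stood at 5 of 10 higher and 1 lower in Cold M1, with a summed level of 348 to 395 CPM, against 348 to 419 CPM in Warm M1. The M2-type genes Cxcr3, with 4.29, 3.13 and 3.01 CPM in Cold M1 against 1.07, 1.63 and 1.07 CPM in Warm M1, and Cxcl13, with 1.65, 1.64 and 2.89 CPM against 0.233, 0.813 and 0.194 CPM, were called higher at these low levels. Cxcr3 kept its call in all 6 fits without 1 library, and Cxcl13 in 3 of them. Cxcl13 was also called higher in Warm AP than in Warm M1. The progenitor share would give 64.1%, 32.2% and 12.7% of its level in the Cold M1 libraries, and its part was not tested. T and NK cell markers, with 2 of 6 tested higher and none lower, summed to 122.9 to 162 CPM in Cold M1, against 91.3 to 105 CPM in Warm M1. Cxcr4 had 513, 678 and 755 CPM, Cxcl16 112, 150.3 and 163 CPM and Cx3cr1 9.96, 22.9 and 18.3 CPM in Cold M1, and none of these passed. Cxcr4 was called higher by DESeq2 (0.32, adjusted p = 0.0323), without Cold M1 library 1 (0.43, adjusted p = 0.0178), and with the lowest (0.48, adjusted p = 0.00443) or the expected (0.74, adjusted p = 0.00025) progenitor counts subtracted. Cx3cr1 was called lower without Cold M1 library 2 (-0.82, adjusted p = 0.0219).

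Of the 18 members called in Cold M1 at 5 CPM or more, 13 kept their call whichever library was left out. With subtraction, 16 kept it with the lowest expected progenitor counts subtracted, and 12, among them Cxcl12 in the opposite direction, were called with the expected counts subtracted. The call of Ccl7 was lost without Cold M1 library 2 (-0.53, adjusted p = 0.0964), Cold M1 library 3 (-0.42, adjusted p = 0.109), Warm M1 library 2 (-0.39, adjusted p = 0.147) or Warm M1 library 3 (-0.54, adjusted p = 0.0922). That of Ccl24 was lost without Cold M1 library 1 (-0.52, adjusted p = 0.115), Cold M1 library 2 (-0.83, adjusted p = 0.0758) or Warm M1 library 3 (-0.53, adjusted p = 0.178). For Ccr1 this happened without Warm M1 library 1 (-0.60, adjusted p = 0.0691) or Warm M1 library 3 (-0.64, adjusted p = 0.0593). For Ccr7 it happened without Cold M1 library 2 (0.77, adjusted p = 0.135), Cold M1 library 3 (0.74, adjusted p = 0.127), Warm M1 library 1 (0.79, adjusted p = 0.14) or Warm M1 library 3 (1.07, adjusted p = 0.0686), and for Cxcl9 without Cold M1 library 2 (0.55, adjusted p = 0.148), Cold M1 library 3 (0.70, adjusted p = 0.083), Warm M1 library 1 (0.61, adjusted p = 0.136) or Warm M1 library 2 (0.73, adjusted p = 0.0696).

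**Figure D4:**
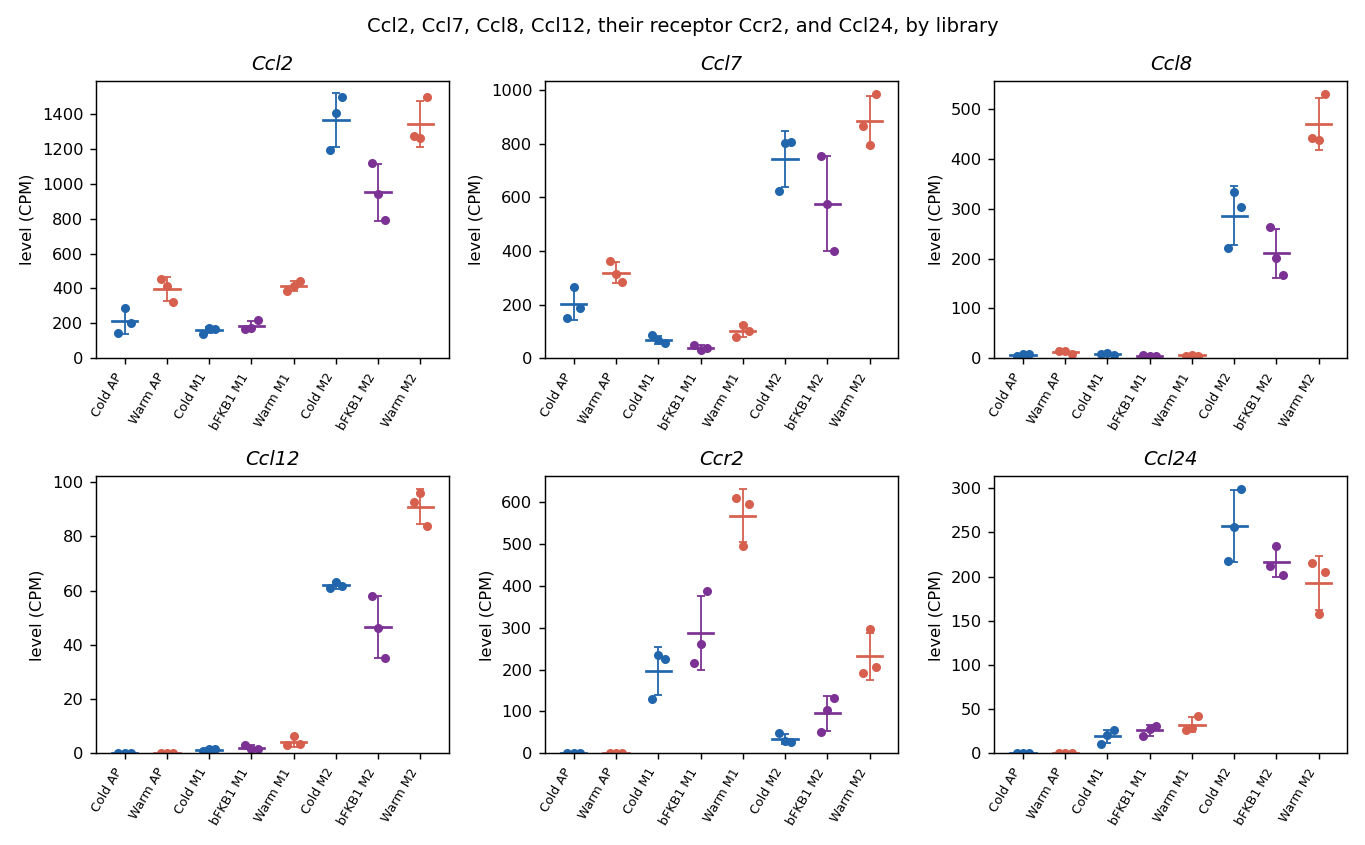
CPM of Ccl2, Ccl7, Ccl8, Ccl12, Ccr2 and Ccl24 in each library (points), with the mean (line) and SD (bar) of the 3 libraries of each group. Ccr2 is lower in Cold than in Warm in M1 and M2, and at 1.14 CPM or less in every AP library. Ccl2 is lower in Cold AP and Cold M1 and overlaps the Warm libraries in Cold M2.

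Of 35 members tested in Cold M2, 6 differed from Warm M2, 2 higher and 4 lower, against 10.1% of all genes (4.41% higher and 5.69% lower). Libraries of the 2 groups did not overlap for 17 members, against 40.0% of all genes. Ccr2 fell to 48.7, 29.6 and 27.3 CPM in Cold M2, against 192, 295 and 205 CPM in Warm M2 (-2.77 ± 0.27, edgeR adjusted p = 0.000457), the largest change of any member in this comparison. Monocyte markers moved beside Ccr2, 2 of 8 lower and none higher. The 2 were F10 and Fn1, which progenitors also express. The markers summed to 535.8 to 661 CPM in Cold M2, against 2028 to 2942 CPM in Warm M2, and their part was not tested. Cxcl3 fell to 4.32, 3.48 and 3.17 CPM, against 7.72, 9.68 and 9.51 CPM in Warm M2 (-1.35 ± 0.22, edgeR adjusted p = 0.00459). Ccl8 fell to 221, 334 and 304 CPM, against 443, 439 and 530.4 CPM in Warm M2 (-0.78 ± 0.19, edgeR adjusted p = 0.0245). Both groups stood apart for Ccr2, Cxcl3 and Ccl8. Ccl9 had 879.9, 813 and 801 CPM in Cold M2, against 1213, 1071 and 987 CPM in Warm M2 (-0.46 ± 0.12, edgeR adjusted p = 0.04). Ccl3 rose to 397, 348 and 349 CPM, against 199.8, 255 and 259.8 CPM in Warm M2 (0.55 ± 0.15, edgeR adjusted p = 0.0415), and Cxcr3 rose to 21.1, 25.4 and 21.7 CPM, against 12.2, 9.27 and 12 CPM in Warm M2 (0.96 ± 0.17, edgeR adjusted p = 0.00705).

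The other ligands of M2 cells did not pass under Cold. Ccl2 had 1195, 1406 and 1494 CPM in Cold M2 (-0.04 ± 0.11, edgeR adjusted p = 0.851), Ccl7 622, 802 and 807 CPM (-0.31 ± 0.19, edgeR adjusted p = 0.351) and Ccl12 60.9, 63.2 and 61.7 CPM (-0.62 ± 0.19, edgeR adjusted p = 0.058). The Ccl12 libraries of Cold M2 nevertheless all lay below those of Warm M2. Ccl4 had 401, 368 and 345 CPM, Ccl5 3.42, 3.2 and 2.31 CPM, Ccl6 1577, 1804 and 1499 CPM and Ccl24 218, 257 and 299 CPM in Cold M2. Cxcl1 had 344, 286 and 307 CPM, Cxcl2 1355, 1183 and 1271 CPM, Cxcl10 42.1, 42.3 and 39.8 CPM and Cxcl13 11.9, 9.32 and 22.5 CPM. The calls of Ccl3, Ccl8 and Ccl9 depended on single libraries, while those of Ccr2, Cxcl3 and Cxcr3 held whichever library was left out. Ccl3 was lost without Cold M2 library 1 (0.49, adjusted p = 0.121), Cold M2 library 2 (0.58, adjusted p = 0.0927), Cold M2 library 3 (0.57, adjusted p = 0.0885), Warm M2 library 1 (0.43, adjusted p = 0.14), Warm M2 library 2 (0.59, adjusted p = 0.0996) or Warm M2 library 3 (0.62, adjusted p = 0.0587). Ccl8 was lost without Cold M2 library 1 (-0.63, adjusted p = 0.073), Cold M2 library 3 (-0.84, adjusted p = 0.0565), Warm M2 library 1 (-0.83, adjusted p = 0.0562), Warm M2 library 2 (-0.84, adjusted p = 0.056) or Warm M2 library 3 (-0.68, adjusted p = 0.0839). Ccl9 was lost without Cold M2 library 1 (-0.50, adjusted p = 0.0742), Cold M2 library 2 (-0.44, adjusted p = 0.119), Cold M2 library 3 (-0.44, adjusted p = 0.118), Warm M2 library 1 (-0.38, adjusted p = 0.117) or Warm M2 library 2 (-0.48, adjusted p = 0.1).

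The cold effect was then compared between the 2 macrophage populations by an interaction contrast, M2 minus M1. It was past the threshold for 3 of 35 members, 2 higher and 1 lower, against 2.31% of all genes (1.11% higher and 1.2% lower). For Ccl2 the difference was 1.34 ± 0.16, edgeR adjusted p = 0.00655: Ccl2 fell in Cold M1 and not detectably in Cold M2. Ccl4 gave 1.42 ± 0.27, edgeR adjusted p = 0.0384, with a fall in Cold M1 and no call in Cold M2, where its level was higher than in Warm M2 in every library. Ccl8 gave -1.34 ± 0.29, edgeR adjusted p = 0.0431, with a fall in Cold M2 and no call in Cold M1. For Ccr2, called lower in both populations, the difference was not past the threshold (-1.22 ± 0.36, edgeR adjusted p = 0.0779). The Ccl2 difference kept its call whichever library was left out. The Ccl4 difference lost it without Cold M2 library 1 (1.37, adjusted p = 0.057), Cold M2 library 2 (1.41, adjusted p = 0.0964), Cold M2 library 3 (1.46, adjusted p = 0.0855), Warm M1 library 1 (1.39, adjusted p = 0.0974), Warm M1 library 3 (1.39, adjusted p = 0.0939), Warm M2 library 1 (1.28, adjusted p = 0.0786), Warm M2 library 2 (1.51, adjusted p = 0.0848) or Warm M2 library 3 (1.43, adjusted p = 0.0823), and the Ccl8 difference without Cold M1 library 1 (-1.33, adjusted p = 0.052), Cold M1 library 2 (-1.16, adjusted p = 0.0686), Cold M2 library 1 (-1.18, adjusted p = 0.0595), Cold M2 library 2 (-1.48, adjusted p = 0.0964), Cold M2 library 3 (-1.40, adjusted p = 0.0946), Warm M1 library 1 (-1.24, adjusted p = 0.111), Warm M1 library 3 (-1.30, adjusted p = 0.113), Warm M2 library 1 (-1.40, adjusted p = 0.0845), Warm M2 library 2 (-1.40, adjusted p = 0.0993) or Warm M2 library 3 (-1.25, adjusted p = 0.0996). The number of members called was 11 without Warm M1 library 2 or Cold M1 library 3, and 1 without any single one of Warm M1 libraries 1 and 3 and the Warm M2 and Cold M2 libraries. Shares of all genes called in these fits are not given beside these counts.

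Cold AP held less of several ligands than Warm AP. Of 28 members tested 10 differed, 2 higher and 8 lower, against 34.9% of all genes (18.4% higher and 16.6% lower), a share close to the members' own, with a median of -0.73 over members beside 0 over all genes. Libraries of the 2 groups did not overlap for 10 members, against 50.4% of all genes. Ccl2 fell to 145, 287 and 201 CPM in Cold AP, against 455, 414 and 321 CPM in Warm AP (-0.98 ± 0.24, edgeR adjusted p = 0.0209). Ccl7 fell to 151, 267 and 189 CPM, against 361, 314 and 282 CPM in Warm AP (-0.73 ± 0.20, edgeR adjusted p = 0.0294). Cold AP library 2 was the highest of its group for both, and the groups did not overlap. Cxcl14 fell to 27.6, 17.1 and 24.4 CPM, against 55.2, 51.4 and 49.6 CPM in Warm AP (-1.26 ± 0.15, edgeR adjusted p = 0.00507), so that it was lower in Cold AP and higher in Cold M1 than in the Warm groups. Cxcl16 fell to 35.7, 31.6 and 33.3 CPM, against 50.8, 46.9 and 36.9 CPM in Warm AP (-0.50 ± 0.12, edgeR adjusted p = 0.0182), and Cxcl1 to 422, 415 and 356 CPM, against 566, 442 and 449.8 CPM (-0.37 ± 0.12, edgeR adjusted p = 0.043). Ccl11 did not pass, with 694, 690.3 and 599.7 CPM in Cold AP, against 830.3, 707 and 721 CPM in Warm AP (-0.26 ± 0.10, edgeR adjusted p = 0.0713), nor did Cx3cl1 with 21.4, 10.2 and 13.1 CPM (-0.32 ± 0.24, edgeR adjusted p = 0.317).

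Cxcl12 rose to 191, 166 and 176 CPM in Cold AP, against 136, 133 and 135 CPM in Warm AP (0.32 ± 0.08, edgeR adjusted p = 0.0219). Cxcl9 was called higher with 30.9, 4.55 and 24.04 CPM in Cold AP, against 5.09, 5.45 and 4.54 CPM in Warm AP (1.89 ± 0.56, edgeR adjusted p = 0.0346). Cold AP library 2 did not share this rise, and it was also the lowest of its group for Cxcl10, with 17.6, 5.42 and 13.1 CPM in Cold AP, against 6.12, 5.55 and 5.84 CPM in Warm AP (0.96 ± 0.35, edgeR adjusted p = 0.065). Cxcl2 had 4.81, 14.6 and 6.29 CPM in Cold AP, against 45.9, 32.4 and 13.7 CPM in Warm AP (-1.89 ± 0.50, edgeR adjusted p = 0.0255). Ccl4, with 0.279, 1.07 and 0.227 CPM in Cold AP, against 3.78, 3.63 and 0.665 CPM in Warm AP, and Ccr2, with 0, 0.238 and 0.303 CPM, against 1.101, 1.14 and 0.462 CPM, were called lower at low levels. These calls held in 2 of 6 fits without 1 library for Ccl4 and in 1 of 6 for Ccr2. Macrophage markers moved with these, 2 of 10 lower and 1 higher, with 6 at an unadjusted p under 0.05. Their median was -1.86, beside 0 over all genes. They summed to 74.2 to 199.995 CPM in Cold AP, against 96.3 to 523 CPM in Warm AP. The macrophage share would give between 40.5% and 98.8% of the Cxcl2 level in Warm AP, and the Cxcl2 call was lost with the expected macrophage counts subtracted, an alternative chosen after seeing the data (-0.61, adjusted p = 0.526).

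The calls in Cold AP depended on which library was left out, while the log2 fold changes listed below kept their sign. Shares of all genes called in these fits are not given. The counts therefore do not tell a change in the members from one over all genes. The number of members called was 21 without Warm AP library 3 and 17 without Cold AP library 2, but 4 without Cold AP library 1 and 1 without Cold AP library 3, Warm AP library 1 or Warm AP library 2. Among the 8 members called at 5 CPM or more, Cxcl14 alone kept its call in all 6 of these fits. Ccl2 was lost without Cold AP library 3 (-0.96, adjusted p = 0.0809), Warm AP library 1 (-0.89, adjusted p = 0.0622) or Warm AP library 2 (-0.95, adjusted p = 0.078), and Ccl7 without Cold AP library 1 (-0.55, adjusted p = 0.057), Cold AP library 3 (-0.69, adjusted p = 0.103), Warm AP library 1 (-0.65, adjusted p = 0.0856) or Warm AP library 2 (-0.74, adjusted p = 0.0895). Cxcl1 was lost without Cold AP library 1 (-0.40, adjusted p = 0.0711), Cold AP library 3 (-0.31, adjusted p = 0.147), Warm AP library 1 (-0.26, adjusted p = 0.154) or Warm AP library 2 (-0.43, adjusted p = 0.0868). Cxcl2 was lost without Cold AP library 1 (-1.60, adjusted p = 0.0663), Cold AP library 3 (-1.73, adjusted p = 0.0964), Warm AP library 1 (-1.50, adjusted p = 0.0726) or Warm AP library 2 (-1.85, adjusted p = 0.0828). Cxcl9 was lost without Cold AP library 1 (1.43, adjusted p = 0.1), Cold AP library 3 (1.70, adjusted p = 0.108), Warm AP library 1 (1.88, adjusted p = 0.086), Warm AP library 2 (1.95, adjusted p = 0.102) or Warm AP library 3 (1.84, adjusted p = 0.0624). Cxcl12 was lost without Cold AP library 1 (0.28, adjusted p = 0.0622), Cold AP library 3 (0.31, adjusted p = 0.0861), Warm AP library 1 (0.31, adjusted p = 0.0828) or Warm AP library 2 (0.31, adjusted p = 0.111), and Cxcl16 without Cold AP library 3 (-0.51, adjusted p = 0.0704), Warm AP library 1 (-0.41, adjusted p = 0.0618) or Warm AP library 2 (-0.47, adjusted p = 0.0835).

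bFKB1 treatment was compared with the Warm groups, which also serve the Cold comparisons. In bFKB1 M1 10 of 34 members tested differed from Warm M1, 2 higher and 8 lower, against 21.6% of all genes (12.2% higher and 9.45% lower). Libraries of the 2 groups did not overlap for 15 members, against 39.5% of all genes. Ccl17 fell to 2.58, 3.03 and 3.56 CPM in bFKB1 M1, against 9.05 to 14.3 CPM in Warm M1 (-1.83 ± 0.27, edgeR adjusted p = 0.00161). Ccl22 fell to 11.1, 12.9 and 10.2 CPM, against 16.9 to 28.1 CPM in Warm M1 (-0.95 ± 0.21, edgeR adjusted p = 0.0104). Ccr7 fell to 17.9, 14.1 and 16.6 CPM, against 21.6 to 34.4 CPM in Warm M1 (-0.86 ± 0.25, edgeR adjusted p = 0.0329). The dendritic-type set thus stood lower under bFKB1 in every library, and dendritic cell markers stood at 1 of 10 higher and 2 lower, with a summed level of 263.1 to 273 CPM in bFKB1 M1, against 348 to 419 CPM in Warm M1. Their part was not tested. Ccl5 fell to 6.84, 11.1 and 8.13 CPM in bFKB1 M1, against 15.6 to 18.4 CPM in Warm M1 (-0.97 ± 0.29, edgeR adjusted p = 0.0354).

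Of the 4 CCR2 ligands, 2 fell in bFKB1 M1. Ccl12 (-0.99 ± 0.34, edgeR adjusted p = 0.0588) and Ccl8 (-0.25 ± 0.24, edgeR adjusted p = 0.489) did not pass there. Ccl2 fell to 169, 176 and 218 CPM, against 387 to 441 CPM in Warm M1 (-1.13 ± 0.14, edgeR adjusted p = 0.000858), and Ccl7 to 47.7, 31.03 and 39.9 CPM, against 78.4 to 125 CPM in Warm M1 (-1.36 ± 0.23, edgeR adjusted p = 0.00302). Ccl4 fell to 91.98, 89.97 and 103 CPM, against 204 to 216 CPM in Warm M1 (-1.14 ± 0.11, edgeR adjusted p = 0.000533). No bFKB1 library reached the Warm range for these 3 genes. Ccr2 had 217, 261 and 386 CPM in bFKB1 M1, against 494 to 609 CPM in Warm M1, and lay at the threshold (-0.96 ± 0.32, edgeR adjusted p = 0.0504). It was called lower by DESeq2 (-0.96, adjusted p = 0.0327), with the expected (-0.94, adjusted p = 0.0409) or the lowest expected (-0.95, adjusted p = 0.0446) progenitor counts subtracted, and without Warm M1 library 2 (-1.07, adjusted p = 0.0351) or bFKB1 M1 library 3 (-1.24, adjusted p = 0.0257). Cx3cr1 fell to 18.9, 14.8 and 14.5 CPM, against 21.7 to 26.6 CPM in Warm M1 (-0.62 ± 0.16, edgeR adjusted p = 0.0189). Cxcl14 rose to 12.8, 8.66 and 7.76 CPM, against 2.38 to 6.59 CPM in Warm M1 (1.29 ± 0.30, edgeR adjusted p = 0.013). The progenitor share of RNA was 7.44%, 2.18% and 3.81% in bFKB1 M1 libraries 1, 2 and 3, against 2.08%, 8.66% and 2.14% in Warm M1. Of the 16 markers behind this share, 0 were called higher and 0 lower, with 1 at an unadjusted p under 0.05. Their part in the Cxcl14 result was not tested. The eosinophil receptor gene Ccr3 was called higher at 5.43, 4.78 and 4.202 CPM in bFKB1 M1, against 1.77 to 3.94 CPM in Warm M1, a call that held in 2 of 6 fits without 1 library.

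The most abundant ligands of M1 cells gave small values under bFKB1. Ccl6 had 1141, 1282 and 1440.4 CPM in bFKB1 M1 (-0.06 ± 0.10, edgeR adjusted p = 0.699), Ccl9 1156, 1143 and 1179 CPM (-0.08 ± 0.07, edgeR adjusted p = 0.474) and Cxcl2 1329, 1400.1 and 1469.9 CPM (-0.16 ± 0.10, edgeR adjusted p = 0.283). None of these passed. Ccl3 had 97.9, 72.6 and 69.1 CPM, Cxcl1 557, 506 and 372 CPM, Cxcl3 9.26, 12.6 and 15.98 CPM and Cxcl10 22.6, 49.6 and 56.2 CPM in bFKB1 M1. The number of members called ranged from 6, without Warm M1 library 3, to 12 over the fits without 1 library. Shares of all genes called in those fits are not given. Ccl5 lost its call without Warm M1 library 1 (-1.03, adjusted p = 0.0721), Warm M1 library 3 (-0.94, adjusted p = 0.0871), bFKB1 M1 library 1 (-0.80, adjusted p = 0.127) or bFKB1 M1 library 3 (-0.92, adjusted p = 0.0803). Ccr7 lost it without Warm M1 library 3 (-0.76, adjusted p = 0.103), bFKB1 M1 library 1 (-0.91, adjusted p = 0.0707), bFKB1 M1 library 2 (-0.77, adjusted p = 0.111) or bFKB1 M1 library 3 (-0.88, adjusted p = 0.0582). Cx3cr1 lost it without Warm M1 library 1 (-0.57, adjusted p = 0.071), bFKB1 M1 library 2 (-0.57, adjusted p = 0.0714) or bFKB1 M1 library 3 (-0.56, adjusted p = 0.0504), and Cxcl14 without Warm M1 library 3 (1.14, adjusted p = 0.0551) or bFKB1 M1 library 1 (1.06, adjusted p = 0.059).

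In bFKB1 M2 7 of 34 members tested differed from Warm M2, 1 higher and 6 lower, against 8.26% of all genes (5.25% higher and 3.01% lower). Libraries of the 2 groups did not overlap for 18 members, against 35.8% of all genes. Of the 4 CCR2 ligands, 3 were lower. Ccl8 fell to 264, 200.4 and 167 CPM in bFKB1 M2, against 439 to 530.4 CPM in Warm M2 (-1.18 ± 0.18, edgeR adjusted p = 0.00364). Ccl12 fell to 58.1, 46.3 and 35.2 CPM, against 83.8 to 96.2 CPM in Warm M2 (-0.98 ± 0.23, edgeR adjusted p = 0.0276). Ccl2 fell to 1119.6, 939 and 791 CPM, against 1264 to 1494 CPM in Warm M2 (-0.52 ± 0.14, edgeR adjusted p = 0.0421). Library 1 of bFKB1 M2 was the highest and library 3 the lowest for all of these, and no library reached the Warm range. Ccl7 had 754, 574 and 399 CPM in bFKB1 M2 and did not pass (-0.63 ± 0.22, edgeR adjusted p = 0.106). Ccl4 fell to 179, 187 and 152 CPM, against 225 to 306 CPM in Warm M2 (-0.66 ± 0.11, edgeR adjusted p = 0.00743). Ccr2 fell to 50.98, 103 and 131 CPM, against 192 to 295 CPM in Warm M2 (-1.29 ± 0.32, edgeR adjusted p = 0.0349), and Ccr1 to 102, 88.7 and 91.7 CPM, against 125 to 133 CPM (-0.47 ± 0.11, edgeR adjusted p = 0.0313). Monocyte markers stood at 1 of 8 lower and none higher, with 4 at an unadjusted p under 0.05. The 1 called was Fn1 (-1.33 ± 0.30, edgeR adjusted p = 0.0237), which progenitors also express. The markers summed to 695 to 1314 CPM in bFKB1 M2, against 2028 to 2942 CPM in Warm M2, and their part was not tested. Ccr3 was called higher at 5.45, 4.28 and 4.28 CPM in bFKB1 M2, against 1.81 to 2.54 CPM in Warm M2, a call that was lost in all 6 fits without 1 library (0.88 to 1.11, adjusted p = 0.0779 to 0.137).

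Ccl24, with 212, 235 and 202 CPM in bFKB1 M2 (0.15 ± 0.20, edgeR adjusted p = 0.68), Cxcr3, with 17.4, 12.5 and 13.2 CPM (0.35 ± 0.19, edgeR adjusted p = 0.273), and Ccl3, with 228, 199 and 149 CPM (-0.33 ± 0.16, edgeR adjusted p = 0.244), did not pass. Without 1 library the number of members called was 2 to 4, with 2 each without Warm M2 library 1, 2 or 3 or bFKB1 M2 library 2, 3 without bFKB1 M2 library 3 and 4 without bFKB1 M2 library 1, while the calls of Ccl4 and Ccl8 held in all these fits. Shares of all genes called in those fits are not given. Ccl2 lost its call without Warm M2 library 1 (-0.55, adjusted p = 0.0836), Warm M2 library 2 (-0.56, adjusted p = 0.0759), Warm M2 library 3 (-0.41, adjusted p = 0.138), bFKB1 M2 library 2 (-0.51, adjusted p = 0.105) or bFKB1 M2 library 3 (-0.40, adjusted p = 0.126). Ccl12 lost it without Warm M2 library 1 (-0.96, adjusted p = 0.0834), Warm M2 library 2 (-0.95, adjusted p = 0.0878), Warm M2 library 3 (-1.02, adjusted p = 0.0675), bFKB1 M2 library 2 (-0.98, adjusted p = 0.0823) or bFKB1 M2 library 3 (-0.81, adjusted p = 0.0928). Ccr1 lost it without Warm M2 library 1 (-0.45, adjusted p = 0.0918), Warm M2 library 2 (-0.51, adjusted p = 0.0666), Warm M2 library 3 (-0.45, adjusted p = 0.0888), bFKB1 M2 library 1 (-0.52, adjusted p = 0.06), bFKB1 M2 library 2 (-0.43, adjusted p = 0.0971) or bFKB1 M2 library 3 (-0.45, adjusted p = 0.0875), and Ccr2 without Warm M2 library 1 (-1.39, adjusted p = 0.0659), Warm M2 library 2 (-1.08, adjusted p = 0.12), Warm M2 library 3 (-1.35, adjusted p = 0.0717), bFKB1 M2 library 1 (-0.97, adjusted p = 0.074) or bFKB1 M2 library 2 (-1.35, adjusted p = 0.0814). The bFKB1 effect did not differ detectably between M2 and M1: edgeR's quasi-likelihood test called 0 of 34 members and 0.0% of all genes, 5 members were at an unadjusted p under 0.05, and DESeq2 called 0 members.

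**Figure D5:**
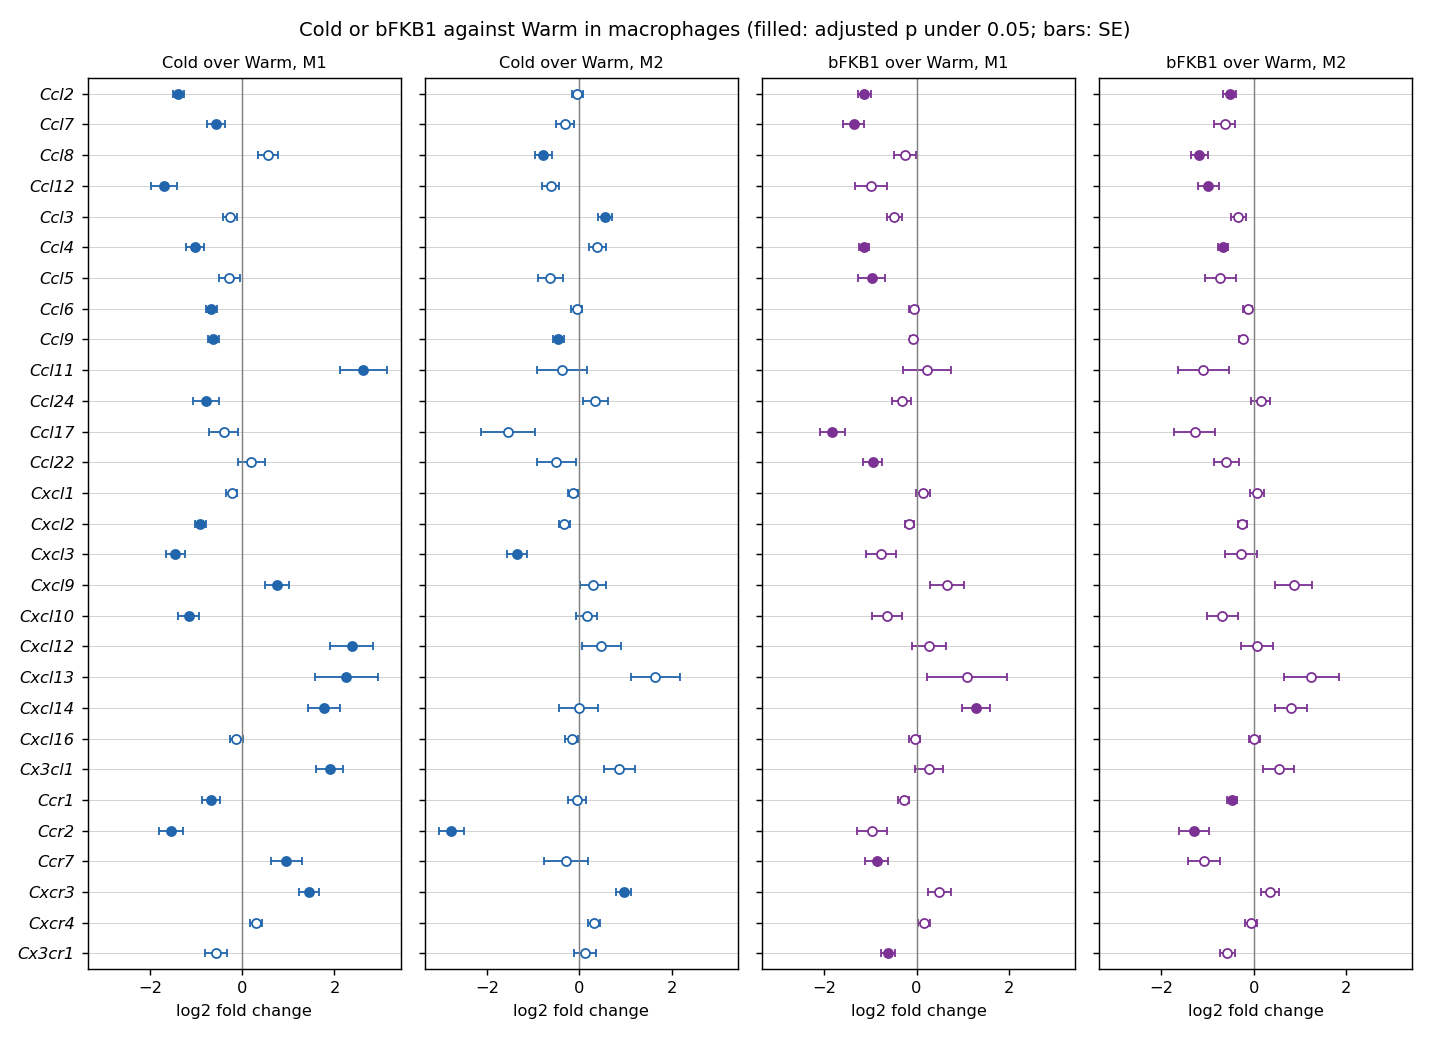
Log2 fold changes over Warm (points, with the SE as bars) of 29 members for Cold and bFKB1 in M1 and M2, filled where the edgeR adjusted p was under 0.05. Ccl2 and Ccl4 lie left of 0 in M1 under both treatments, and Ccr2 lies farthest left in Cold M2.

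Genes that work with the chemokines gave the following counts. Of 17 relatives tested outside the numbered names, 4 were higher and 4 lower in Cold M1, near the share of all genes (43.9%), and none higher and 3 lower in Cold M2 (10.1% of all genes). Of 14 tested in Cold AP 1 was higher and 4 lower (34.9% of all genes), and of 16 tested in bFKB1 M1 none was higher and 1 lower (21.6% of all genes). In bFKB1 M2 edgeR called 0 of 16 (8.26% of all genes), with 4 at an unadjusted p under 0.05. DESeq2 called 2 there, beside 6.42% of all genes higher and 4.49% lower. The CXCR2 ligand Ppbp fell in Cold M1 (-1.65 ± 0.24, edgeR adjusted p = 0.000688) and bFKB1 M1 (-1.07 ± 0.22, edgeR adjusted p = 0.00668), and Gpr35, a receptor proposed for Cxcl17, fell in Cold M1 (-1.41 ± 0.18, edgeR adjusted p = 0.000388) and Cold M2 (-2.09 ± 0.22, edgeR adjusted p = 0.000534). Pf4, a chemokine of platelets and macrophages, was lower in M1 than in M2 in Warm mice (-2.45 ± 0.17, edgeR adjusted p = 9.68e-07), and so was the chemerin receptor Cmklr1 (-1.55 ± 0.10, edgeR adjusted p = 5.12e-07). Its ligand gene Rarres2 was a progenitor gene (AP over M1 5.61 ± 0.40, edgeR adjusted p = 3.95e-09). The decoy receptor gene Darc fell in Cold AP (-0.76 ± 0.11, edgeR adjusted p = 0.00697).

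Of 30 genes of chemokine receptor signalling, 2 were higher and 20 lower in Cold M1 (22.4% of all genes higher and 21.5% lower), with a median of -0.29 beside -0.03 over all genes. Progenitor markers moved with this comparison, as given above. With the expected progenitor counts subtracted the list stood at 8 higher and 7 lower, with the lowest expected counts subtracted at 2 higher and 14 lower, and without Cold M1 library 1 at 2 higher and 15 lower, settings chosen for the lists after seeing the data. In the same order, the shares of all genes were 16.5% higher and 18.3% lower, 19.9% and 18.2%, and 17.3% and 16.4%. The 20 included Pik3cd, a PI3-kinase subunit of leukocytes (-0.68 ± 0.10, edgeR adjusted p = 0.000652), and the arrestin genes Arrb1 (-0.63 ± 0.11, edgeR adjusted p = 0.00129) and Arrb2 (-0.47 ± 0.08, edgeR adjusted p = 0.00126), which switch receptors off. Of all 30 genes 2 were lower and none higher in Cold M2 (10.1% of all genes called), and 1 was higher and 4 lower in bFKB1 M1 (21.6%). Of 28 tested in Cold AP 3 were higher and 5 lower (34.9% of all genes called). In bFKB1 M2 edgeR called 0 of 30 (8.26% of all genes), with 8 at an unadjusted p under 0.05. DESeq2 called 1 there, beside 6.42% of all genes higher and 4.49% lower.

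Of 22 inducers of chemokine transcription tested, 1 was higher and 17 lower in Cold M1 (21.5% of all genes lower), 1 higher and 8 lower in Cold M2 (5.69% lower), and 4 higher and 5 lower in Cold AP (18.4% higher and 16.6% lower), with a median of 0.14 in Cold AP. None was higher and 6 were lower in bFKB1 M1 (9.45% of all genes lower), and none was higher and 2 were lower in bFKB1 M2 (3.01% lower). In Cold M1 the list stood at 1 higher and 13 lower with the expected progenitor counts subtracted (18.3% of all genes lower). It stood at 1 higher and 15 lower without library 1 (16.4% lower). Bcl3 and Nfkb2, of the NF-kB family, fell in Cold M1 (-0.67 ± 0.07, edgeR adjusted p = 0.000165 and -0.62 ± 0.09, edgeR adjusted p = 0.000719), and Il4ra, the IL-4 receptor chain upstream of STAT6, fell in Cold M1 (-0.68 ± 0.09, edgeR adjusted p = 0.000545), Cold M2 (-0.86 ± 0.09, edgeR adjusted p = 0.000534), bFKB1 M1 (-0.52 ± 0.06, edgeR adjusted p = 0.000845) and bFKB1 M2 (-0.57 ± 0.06, edgeR adjusted p = 0.000673). Of 17 proteases that can cut chemokines, 11 were higher and 1 lower in Cold M1 (22.4% of all genes higher), and 4 higher and 2 lower in Cold M2 (4.41% higher). Of 15 tested in Cold AP 2 were higher and 3 lower (18.4% higher), with a median of -0.22. In bFKB1 M1 7 were higher and 1 lower (12.2% of all genes higher), and in bFKB1 M2 7 higher and 2 lower (5.25% higher). In Cold M1 the list stood at 12 higher and 1 lower with the expected progenitor counts subtracted (16.5% of all genes higher). It stood at 11 higher and 1 lower without library 1 (17.3% higher). Among them the lysosomal cathepsin gene Ctsd rose in Cold M1 (0.85 ± 0.10, edgeR adjusted p = 0.00025), Cold M2 (0.80 ± 0.10, edgeR adjusted p = 0.00082), bFKB1 M1 (0.98 ± 0.10, edgeR adjusted p = 0.000509) and bFKB1 M2 (1.00 ± 0.10, edgeR adjusted p = 0.000395).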

How the data were processed

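The authors deposited 2 tables of whole-number read counts per gene, 1 for the Warm and Cold libraries and 1 for the bFKB1 libraries. Reads were processed with CASAVA 1.8, GSNAP and, for Warm and Cold, SAMtools on GRCm38, per the submitters' processing notes. No source used here gives the counting program or annotation. 27 rows with a date in place of a symbol, 0.148% to 0.192% of counts, were left out, and 21063 genes remained in both tables. CPM is counts scaled to a library total of 1000000. Differences were tested with edgeR 4.0.16 (R 4.3.3; filterByExpr, TMM scaling, quasi-likelihood test) and Benjamini-Hochberg adjustment at 0.05, with DESeq2 1.42.0 as an alternative. Macrophage libraries of the groups compared shared a fit, Cold and Warm AP had one of their own, and AP was set against macrophages in a fit of all Warm and Cold libraries. The tests were checked on simulated data.

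Libraries held 14374696 to 34600782 counts, and no pair agreed within sampling noise. With 3 libraries a group, p-values measure the spread between these pools or samples, which may in part be technical. Members and gene lists were chosen with earlier results of these data known. Values in every library are given for members whose group mean reached 5 CPM anywhere, and full test values for members called at that level in a comparison; values that did not pass are added for contrast. Results of 1 member are included in the counts and not reported here. From each other list, up to 4 called genes with the smallest p per comparison could be named. Marker lists exclude members.

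Same-numbered libraries deviated together over 11161 genes for M1 and M2 in Warm mice (r = 0.19, 0.34 and 0.26) and under bFKB1 (r = 0.44, 0.11 and 0.38), and not in every pair of any other comparison, so that values with the replicate number as a block stand beside those M1 and M2 results. This pairing comes from the data. Other alternatives were DESeq2 size factors, the DESeq2 test, no filter on low counts, leaving out each library, and subtracting expected progenitor counts, that is the progenitor share of a library times the mean AP level. Subtraction with the lowest marker share, and of macrophage counts in AP, was chosen after seeing the data.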

Additional observations from a re-analysis of the deposited data

Results flagged for a closer look

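The cold effect differed between M2 and M1 macrophages for 3 members by an interaction contrast (M2 minus M1, log2 scale, edgeR's quasi-likelihood test). Ccl2 gave 1.34: its Cold over Warm value was -0.04 in M2 and -1.38 in M1. Ccl4 gave 1.42, from 0.39 in M2 and -1.02 in M1. Ccl8 gave -1.34, from -0.78 in M2 and 0.56 in M1. Progenitor markers were higher in Cold M1 and not in Cold M2, and the part they play in these differences was not tested. Groups of 3 libraries were too small for a check of single outlying libraries.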

How the results depend on the processing

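With all 3 libraries per group, DESeq2 size factors in edgeR changed no count of members called. The count for the cold effect, M2 minus M1, moved most: from 3 it became 12 with the DESeq2 test, 6 without a filter, 6 with expected and 6 with the lowest expected progenitor counts subtracted, and 1 with the replicate block, where Ccl4 (adjusted p = 0.0544) and Ccl8 (0.0555) were lost. For bFKB1 against Warm in M2 the count of 7 became 11 with the DESeq2 test, which called 6.42% of all genes higher and 4.49% lower. Cxcl12 reversed with expected progenitor counts subtracted, to -8.42 in Cold against Warm M1, -12.11 for M1 against M2 in Cold and 8.96 for the cold effect, as the expected counts exceeded its level in Cold M1, and Ccl9 reversed to 0.37 for M1 against M2 in Cold. Ccl11 in Cold M1 could not be fitted there. Outside the M1 and M2 comparisons the replicate block is only a number shared: with it Ccl7 (0.0663) was lost and Ccl8 (0.0485) gained in Cold M1, Ccl9 (0.0694) lost and Cxcl13 (0.0401) gained in Cold M2, Ccl2 (0.0648) lost in bFKB1 M2, and 15 members were called in Cold AP. For the cold effect and for Cold AP, shares of all genes called in these settings are not given. They may have moved with the counts of members.

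Leaving out 1 library at a time, the members called numbered 17 to 21 in Cold M1, 3 to 5 in Cold M2, 1 to 21 in Cold AP, 6 to 12 in bFKB1 M1 and 2 to 4 in bFKB1 M2, and 19 to 22 in Warm, 23 to 26 in Cold and 20 to 22 under bFKB1 for M1 against M2. They numbered 33 to 34 for AP against M1, 34 to 35 for AP against M2, 1 to 11 for the cold effect difference and 0 to 0 for that of bFKB1. These counts stand without the shares of all genes called in the same fits, which may have moved with them. TMM-scaled CPM moved 28 of 240 levels by more than 1 SD. Depth limits the 24 members under 5 CPM, and 3 libraries a group limit small changes.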
